A study of Mus musculus with 4 samples.

Results

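L2/3-Rorb neurons are 1 of 7 excitatory subtypes that the study's deposited cell annotation distinguishes in the ventromedial prefrontal cortex (vmPFC) of the mouse. The members were taken from that annotation, by matching library and cell barcode to the count matrices, and amounted to 689 of 9368 annotated excitatory neurons. The study combined single-cell RNA-seq with retrograde tracing: recombinant AAV2-retro viruses that express EGFP and a projection barcode from a short CAG promoter were injected on one side into 5 targets of the vmPFC: LH (lateral hypothalamus), BLA (basolateral nucleus of the amygdala), MD (the mediodorsal nucleus of the thalamus), AI (agranular insula) and DMS (the dorsomedial part of the striatum). All animals were male C57BL/6 mice, 8 weeks old at injection, and all carried the viruses, so the series has no uninjected control. The prelimbic (PrL) and infralimbic (IL) areas were dissected weeks later and profiled on the 10x platform. In the unsorted group, each of 3 libraries came from 1 mouse and held whatever cells survived dissociation. In the sorted group, EGFP-positive cells of 3 mice were pooled into 1 library, which therefore gives no spread between animals. The 3 unsorted libraries contributed 210, 160 and 194 L2/3-Rorb neurons and the sorted library 125.

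Excitatory neurons of the upper cortical layers are mostly intratelencephalic, that is, they send axons to other cortical areas, to the striatum or to the amygdala rather than to the thalamus or brainstem. Rorb encodes a nuclear orphan receptor of the ROR family that is widely used as a marker of the middle layers of sensory cortex, where thalamic axons end, whereas Cux2, a homeodomain factor, marks the upper layers. Rodent prefrontal cortex lacks a clear granular layer, and Rorb-expressing neurons there lie between the superficial and the deep pyramidal cells.

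The L2/3-Rorb neurons had a median of 20702, 21669 and 22738 unique molecular identifiers (UMIs, each standing for 1 captured transcript) across unsorted libraries, against 29514 in the sorted one. Summed over neurons they gave between 3640163 and 4479648 UMIs per library. Whole libraries held 2075 to 8040 cell barcodes and 54749198 to 87841541 UMIs. Mitochondrial transcripts made up a median of 6.73% to 7.0% of UMIs in unsorted and 3.71% in sorted L2/3-Rorb neurons. Pairs of libraries shared 5 to 30 cell barcodes, none of which belonged to an L2/3-Rorb neuron in both. All levels below are CPM, the counts of a gene scaled to a fixed total of the summed UMIs of a group of neurons in 1 library. Fewer cells with a transcript and less transcript per cell cannot be told apart in such sums.

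Rorb itself was found in most members. The median count of Rorb in a neuron was 3 UMIs, with an interquartile range of 1 to 6 and a maximum of 25, and 107 of 689 neurons had none. After each neuron was thinned to 10000 UMIs, Rorb was detected in 70.5%, 67.3% and 72.9% of L2/3-Rorb neurons of the unsorted libraries and in 75.2% of the sorted ones, against 36.4% of L5-S100b, 12.9% of L5-Bcl6, 12.5% of L5-Htr2c, 6.3% of L2/3-Calb1, 2.4% of L6-Syt6 and 1.8% of L6-Npy neurons over all libraries. Slc17a7, the vesicular glutamate transporter of cortical pyramidal cells, was found in 100% of thinned L2/3-Rorb neurons, Gad1, which makes GABA, in 1.5%, and C1qa, a complement gene of microglia, in 2.3%. The neurons thus carried the marker and the glutamatergic genes of their label, and L5-S100b was the other subtype in which Rorb was detected most often.

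Rorb, on chromosome 19 (GRCm38 chr19:18930605-19111196, minus strand), had 172.81, 171.70 and 183.50 CPM in L2/3-Rorb neurons of the unsorted libraries and 212.98 CPM in the sorted library. In all other excitatory neurons pooled it had 17.04, 14.64, 17.17 and 20.81 CPM. The log2 ratio was 3.34 ± 0.09 (SD, n = 4 libraries). L5-S100b was the next subtype with 76.05 CPM on average, a log2 ratio of 1.27 below L2/3-Rorb. Because the clusters had been drawn from these same expression values, ratios between L2/3-Rorb and other neurons describe the cluster and carry no test.

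Across genes, 295 of 8964 (3.29%) were at least 2-fold higher in L2/3-Rorb than in the other excitatory neurons in each of the 4 libraries, and 217 (2.42%) were at least 2-fold lower. The largest ratio belonged to Synpr (chr14:13284780-13616340), which encodes synaptoporin, a synaptic vesicle protein. It had 338.87, 367.57 and 323.02 CPM in the unsorted libraries and 252.47 CPM in the sorted one, against 9.60 to 15.47 CPM in the other neurons, a log2 ratio of 4.51 ± 0.05. Cux2 (chr5:121856366-122050102) followed with 147.84, 141.75, 129.92 and 215.70 CPM against 7.03 to 8.25 CPM, a log2 ratio of 4.20 ± 0.35. Next came Tnnc1 (chr14:31208312-31211729), the slow skeletal and cardiac form of the calcium sensor troponin C, with 124.88, 133.24, 140.86 and 76.26 CPM against 6.60 to 8.85 CPM. For each of these genes the lowest L2/3-Rorb library lay far above the highest library of the other neurons.

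The remaining leading genes covered several kinds of protein. Prdm8, a transcriptional repressor, had a log2 ratio of 3.46 ± 0.19, Coch, an extracellular matrix protein first known from the inner ear, 3.44 ± 0.25, and Cdkn1c, an inhibitor of cyclin-dependent kinases, 3.21 ± 0.20. Krt12, a keratin best known from the cornea, reached 115.88, 145.05, 136.84 and 78.44 CPM, and A830036E02Rik, a transcript on the opposite strand that overlaps it on chromosome 11 (chr11:99416956-99425497 against chr11:99415666-99422259), 114.98, 106.04, 105.37 and 160.42 CPM. Whether strand was used in counting is not given in the sources used here, so the assignment of reads between these overlapping genes is uncertain, although the antisense gene was highest and Krt12 lowest in the sorted library. Receptors among the leading genes were Gpr83 (3.22 ± 0.19), Plxnd1, a semaphorin receptor (2.69 ± 0.02), Htr2a, the serotonin 2A receptor (2.57 ± 0.14), and Crhr1, the receptor of corticotropin-releasing hormone (2.52 ± 0.16). Of these, Gpr83 was uneven between libraries, with 48.38, 49.17 and 50.23 CPM in the unsorted and 109.49 CPM in the sorted library. The list was completed by D16Ertd472e (3.27), the immunoglobulin-domain gene Igsf3 (3.15), Medag (3.07), the copine Cpne9 (2.96), the actin regulator Marcksl1 (2.86), Ptgfrn (2.55) and the membrane skeleton gene Epb41l2 (2.53).

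**Figure D1:**
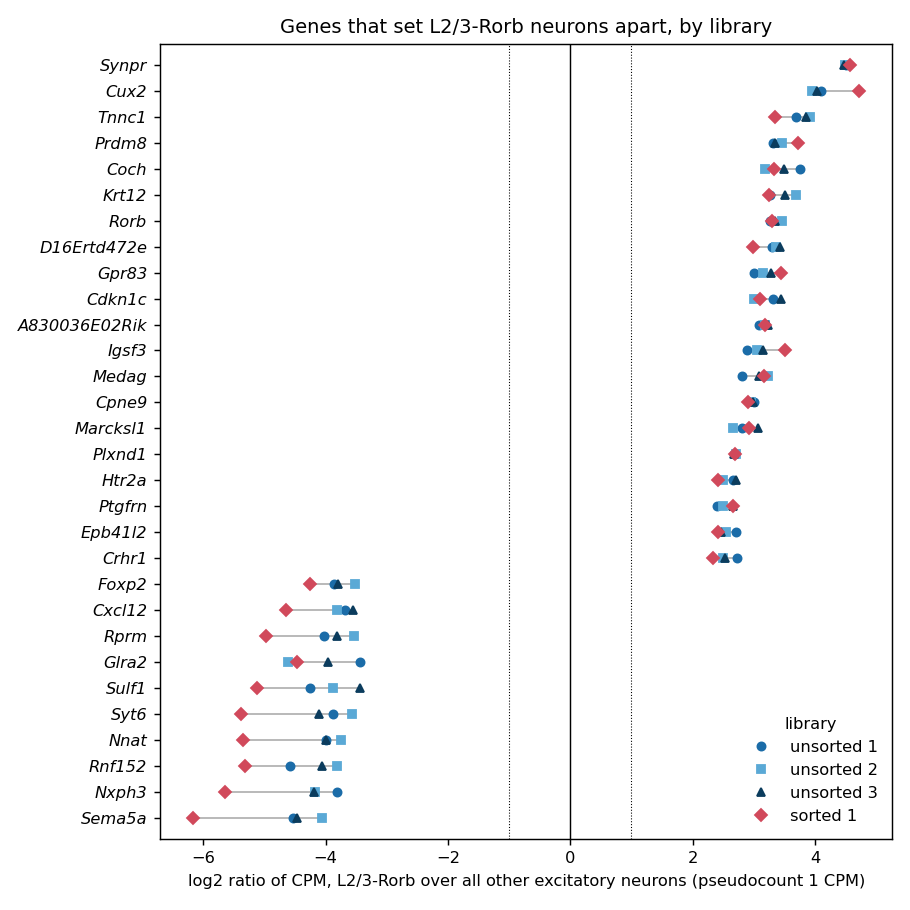
Log2 ratio of CPM in L2/3-Rorb over all other excitatory neurons (x axis, pseudocount 1 CPM) for the 20 highest and 10 lowest genes (y axis), with 1 symbol for each of the 3 unsorted libraries and the sorted library, grey lines for the range and dotted lines at 2-fold. The 20 highest genes keep within a narrow range in the 4 libraries, while for the 10 lowest genes the sorted library reaches the most negative ratios or lies close to them.

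Among the genes lowest in L2/3-Rorb, Sema5a, a semaphorin, had 3.83, 5.49 and 4.02 CPM in the unsorted libraries and 0.82 CPM in the sorted library, against 107.60 to 129.50 CPM in the other neurons (log2 ratio -4.81 ± 0.93). Rprm, a cell cycle gene used as a marker of layer 6, had 45.45, 64.83, 52.01 and 21.52 CPM against 709.45 to 760.36 CPM (-4.09 ± 0.63). Nxph3, a neurexin ligand (-4.46), Rnf152, a ubiquitin ligase (-4.44), Nnat, neuronatin (-4.27), Syt6, a synaptotagmin (-4.24), Sulf1, a heparan sulfatase (-4.18), Glra2, a glycine receptor subunit (-4.12), Cxcl12, a chemokine (-3.93), and Foxp2, a forkhead factor of corticothalamic neurons (-3.86), made up the rest. In each of these 10 genes the L2/3-Rorb value was lowest in the sorted library.

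Set against each subtype in turn, L2/3-Rorb stood closest to L5-S100b. Of all subtypes it had the fewest such differences, with 97 of 8726 genes (1.11%) at least 2-fold higher than in L5-S100b in every library and 66 (0.756%) at least 2-fold lower. The counts were 252 (2.86%) and 189 (2.15%) against L2/3-Calb1, the other subtype of the upper layers, 358 (4.04%) and 239 (2.7%) against L6-Npy, 393 (4.46%) and 262 (2.98%) against L5-Bcl6, 517 (5.75%) and 344 (3.82%) against L6-Syt6, and 595 (6.53%) and 407 (4.47%) against L5-Htr2c. The subtypes differ in their numbers of neurons, from 321 to 5092, and so in the precision of their sums. L5-Htr2c was compared in the 3 unsorted libraries, since the sorted library held 4 of its neurons, under the minimum of 10.

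Some genes separated L2/3-Rorb from every other subtype. Tnnc1 had the largest ratio over the next subtype among genes with at least 50 CPM (log2 2.35, next L5-S100b), followed by Medag (2.34), Igsf3 (1.92, next L5-Bcl6), D16Ertd472e and Krt12 (both 1.61), Cdkn1c (1.5), Coch (1.36), A830036E02Rik (1.34), Lcorl (1.28), Rorb (1.27) and Synpr (1.17, next L2/3-Calb1 with 142.14 CPM). Lhfp (1.02), Gpr83 (0.99), Crhr1 (0.98) and Grm2, the presynaptic metabotropic glutamate receptor 2 (0.96), came after them. The next subtype was L5-S100b for 12 of these 15 genes. Without the limit of 50 CPM, 19 genes were at least 2-fold above each of the 6 other subtypes in every library compared (for L5-Htr2c the 3 unsorted ones), among them Tcap, a partner of titin (32.87 ± 7.67 CPM, log2 2.89 over L5-S100b), and Scn7a, a sodium channel family gene (49.02 ± 3.06 CPM, 2.56). Rspo1, a Wnt pathway agonist, Hgf, hepatocyte growth factor, Kcnh5, a potassium channel, and the transcription factor genes Scx and Atoh7 were also among the 19. Cux2 was not, since L2/3-Calb1 had more of it (182.98 CPM).

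Genes that name other subtypes, or that the study used to mark layers, were mostly low or intermediate here. Calb1, the calcium buffer calbindin, had 28.35, 36.26, 40.18 and 26.15 CPM in L2/3-Rorb, against 330.04 CPM on average in L2/3-Calb1. Htr2c, the serotonin 2C receptor, had 41.40, 40.38, 37.95 and 38.95 CPM, second only to L5-Htr2c among the 7 subtypes, although its ratio over the other neurons was uneven (log2 2.05 ± 1.15), their pooled level being 1.95 CPM in the sorted library and 11.89 to 15.12 CPM in the unsorted ones. S100b had 11.03, 13.74 and 12.50 CPM in the unsorted libraries and 2.45 CPM in the sorted library. Npy (log2 -3.13), Syt6 (-4.24) and Bcl6 (-0.63) were lower than in the other neurons as a pool. Etv1, an ETS factor of layer 5, was lower too (-0.80 ± 0.04), whereas Slc24a3, a sodium and calcium exchanger, was higher (1.23 ± 0.23) and exceeded L2/3-Rorb in L5-S100b.

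**Figure D2:**
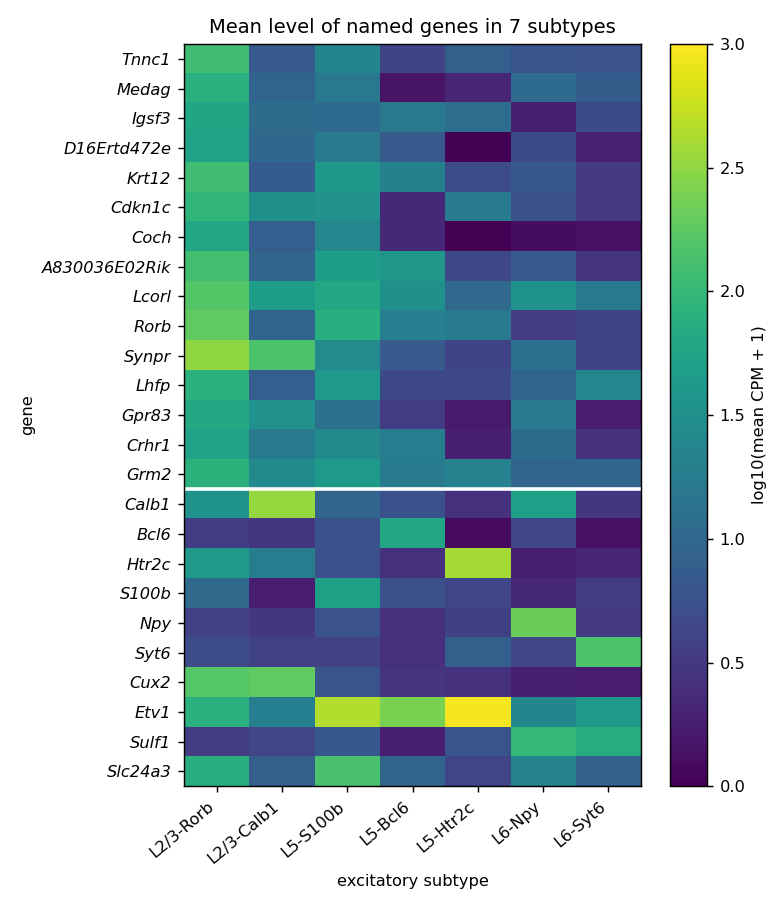
Mean CPM over libraries (colour, log10 of CPM + 1) of the 15 genes with the highest ratio over the next subtype (above the white line) and of genes that name subtypes or mark layers in the study (below it), for the 7 excitatory subtypes on the x axis. Above the line the L2/3-Rorb column is brightest throughout and L5-S100b mostly comes next. Below it Etv1 and Calb1 are brighter in other subtypes.

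Some factors of the upper layers were higher and some of the deep layers lower in L2/3-Rorb than in the pooled other neurons, most of which are L6-Syt6. Of 12 upper-layer and intratelencephalic factors measured, 5 were at least 2-fold higher in all libraries (3.29% over all genes) and 0 lower, with a median log2 ratio of 1.14 against 0.026 over all genes tested. Besides Cux2 and Rorb these were Pou3f2, a POU factor of upper-layer neurons (63.74 ± 11.15 against 12.16 ± 1.29 CPM), Cux1 (53.90 ± 16.26 against 18.82 ± 2.03 CPM) and Mef2c, an activity-dependent factor (3603 ± 374 against 1352 ± 144 CPM). Of 10 deep-layer factors, 0 were higher and 5 lower (2.42% over all genes; median -1.35): Foxp2, Bcl11b (11.50 ± 2.77 against 176.81 ± 21.17 CPM), Tle4 (29.24 ± 2.10 against 161.41 ± 6.03 CPM), Sox5 (log2 -1.55) and Fezf2, which directs subcerebral projection identity (-1.44). Tbr1 was at -1.07 and missed the rule in at least 1 library. Among markers of layer 2/3 intratelencephalic neurons, Cux2 and Stard8 were higher and Cbln2 lower of 7, and of 4 markers of layer 4/5 intratelencephalic neurons Rorb and Rspo1 (23.07 ± 8.34 against 0.98 ± 0.12 CPM) were higher.

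Ion channels and receptors differed in a few members each, counts that stand beside 3.29% higher and 2.42% lower over all genes. Of 37 potassium channel genes, 6 were higher, led by Kcnh5 (32.43 ± 10.48 against 2.87 ± 0.97 CPM), Kcnab1 (log2 1.68) and Kcnip4 (1.5), and 1 was lower, Kcna1 (-1.43). Of 24 HCN, sodium and calcium channel genes, 3 were higher and 0 lower: the low-threshold calcium channels Cacna1i (67.31 ± 14.72 against 21.75 ± 3.79 CPM) and Cacna1g (67.43 ± 16.34 against 22.78 ± 5.46 CPM), and the auxiliary subunit Cacna2d3. Of 18 glutamate receptor genes, Grm2 (83.38 ± 25.78 against 16.14 ± 4.02 CPM), the NMDA receptor subunit Grin3a (92.74 ± 35.14 against 21.88 ± 9.62 CPM) and the AMPA receptor subunit Gria4 (log2 1.54) were higher and the kainate receptor subunit Grik3 lower (-2.37). Gabra2 was the single GABA-A receptor subunit of 11 to pass (1.27). The medians of these families were near 0, at 0.27 for potassium channels and 0.19 for both the other cation channels and the glutamate receptors.

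Neuromodulator receptors went both ways, again beside 3.29% higher and 2.42% lower over all genes. Of 16 receptors for monoamines, acetylcholine, opioids and cannabinoids, 5 were higher: Htr2a, Htr2c, the cannabinoid receptor Cnr1 (360.29 ± 35.72 against 132.95 ± 21.53 CPM) and the adrenergic receptors Adra1b (log2 1.26) and Adrb1 (1.21). The lower ones were 4: Drd1, the dopamine D1 receptor (1.99 ± 0.51 against 38.60 ± 0.81 CPM), Chrna4, a nicotinic subunit (-2.50), Adra1a (-1.94) and Htr1f (-1.35). Of 12 neuropeptides and peptide receptors, 5 were higher, namely Gpr83, Crhr1, the PACAP precursor Adcyap1 (54.30 ± 8.83 against 9.08 ± 0.69 CPM), cholecystokinin (Cck, 2693 ± 1048 against 900.2 ± 286.82 CPM) and Npy1r (log2 1.41), and Npy, Sstr1 and Ntsr1 were lower. The spread of Cck came mostly from the sorted library, as described with the sorted sample further on.

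Genes of axon growth and adhesion were also split, against the same shares of 3.29% and 2.42%. Of 33 axon guidance ligands and receptors, 6 were higher: Plxnd1, Efna5 (102.94 ± 15.83 against 23.31 ± 5.96 CPM), the ephrin receptor Epha4 (699.64 ± 124.49 against 193.2 ± 38.03 CPM), Slit2 and its receptor Robo2 (log2 1.68 and 1.43) and Ntng1, a netrin-G (1.43). The 5 lower ones were Sema3c (-2.64), the semaphorin co-receptor Nrp1 (-2.38), Sema3e, the ligand of plexin D1 (-1.84), Efnb3 (-1.70) and Sema6d (-1.30). Of 19 cadherins and protocadherins, Cdh8 (64.44 ± 4.16 against 10.74 ± 1.36 CPM), Pcdh15, Cdh12 and Cdh22 were higher and Cdh9, Cdh13 and Cdh6 lower. Of 18 activity-regulated genes only Bdnf, which encodes a neurotrophin, passed (237.46 ± 37.11 against 64.05 ± 9.54 CPM), and the median of that list was 0.001. Among 12 calcium-binding genes, the neuronal calcium sensor hippocalcin (Hpca, 512.46 ± 89.58 against 155.97 ± 21.32 CPM) and Necab1 were higher and Slc24a2 and Necab3 lower. Ifi27, an interferon-induced gene, was lower (6.38 ± 2.69 against 83.05 ± 14.76 CPM), and Slc17a6, the second vesicular glutamate transporter, was lower as well (log2 -1.63), while Slc17a7 did not differ by 2-fold (1041 ± 120 against 1079 ± 84 CPM).

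Within the subtype, the leading genes were not found in the same share of neurons. After thinning, Synpr was detected in 84.0% of L2/3-Rorb neurons, Lcorl in 75.4%, Marcksl1 in 71.3% and Cux2 in 70.4%. Krt12 was detected in 65.0%, A830036E02Rik in 63.2%, Lhfp in 54.9%, Grm2 in 54.5%, Prdm8 in 52.6%, Tnnc1 in 52.1%, Cdkn1c in 48.6%, Medag in 47.9% and Coch in 46.3%. Slc24a3 was detected in 47.4%, Etv1 in 32.5%, and of the genes that name other subtypes Htr2c in 26.5%, Calb1 in 17.9% and S100b in 4.8%. Etv1 was found in 26.90% of the 487 thinned neurons with a Rorb UMI and in 46.43% of the 196 without one, and it was less frequent beside Rorb in each library: 29.45% against 42.62%, 26.17% against 46.15%, 24.29% against 46.15%, and 27.66% against 54.84% in the sorted one. Calb1 went the other way, with 21.15% against 9.69% and the same direction in all 4 libraries. Cux2 had 72.28% against 65.82% with 1 unsorted library at 65.00% against 65.38%, and Slc24a3 had 47.23% against 47.96%. These pairs describe the thinned neurons of the cluster, whose limits were themselves drawn from gene expression, and were not tested.

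The share of L2/3-Rorb among annotated excitatory neurons was 7.46%, 6.44% and 7.88% in the unsorted libraries (7.26 ± 0.74%, SD, n = 3) and 7.80% in the sorted library (exact 95% binomial interval 6.53% to 9.22%, which covers counting error only). The sorted value lay within the unsorted range. The share differed with the number of UMIs that a neuron held of the viral feature, an additional reference entry named barcode in the matrices. Among unsorted neurons with 0 viral UMIs it was 3.62%, 3.53% and 3.26%, among those with 1 to 4 it was 4.95%, 5.32% and 5.13%, with 5 to 19 it was 9.62%, 6.99% and 10.66%, with 20 to 49 it was 14.09%, 13.62% and 15.87%, and with 50 or more it was 23.18%, 20.00% and 22.02%. The 5 classes followed this order in each unsorted library, and the lowest library of the last class exceeded the highest library of each class before it. In the sorted library the values were 7.58%, 6.13%, 6.89%, 10.34% and 19.44%, so the last class was again the highest, but the classes below 20 UMIs did not separate, their 95% intervals running from 4.20% at the lowest to 12.19% at the highest. Whether the viral feature took part in the study's clustering is not given in the sources used here, and the shares carry no test.

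**Figure D3:**
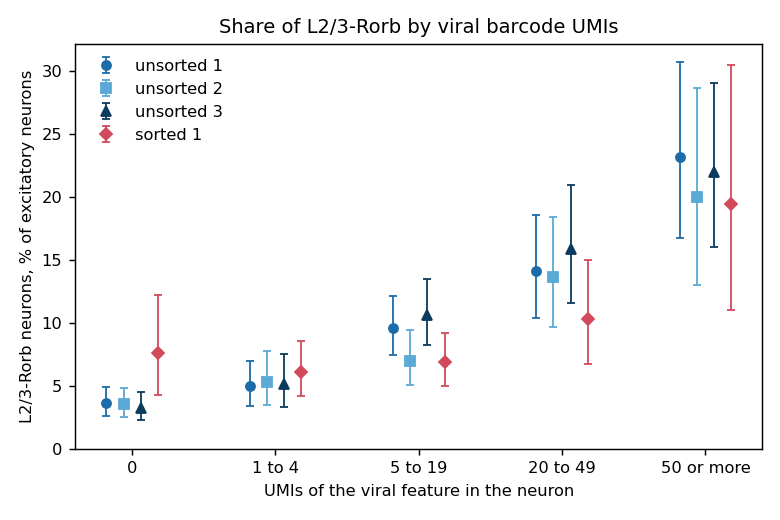
Share of L2/3-Rorb among excitatory neurons in percent (y axis) by the number of viral barcode UMIs in the neuron (x axis, 5 classes), with 1 symbol per library and exact 95% binomial intervals as error bars. Unsorted libraries climb from 3.26% to 3.62% without viral UMIs to between 20.00% and 23.18% with 50 or more, and the sorted library lies between 6.13% and 7.58% in the classes below 20 UMIs.

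Seen from the subtype, 80.95%, 76.25% and 82.99% of unsorted L2/3-Rorb neurons held at least 1 viral UMI (80.06 ± 3.46%), and 88.00% of the sorted ones did (95% interval 80.98% to 93.13%). Holding at least 5 were 66.67%, 60.63% and 70.62% of the unsorted and 63.20% of the sorted neurons. The share with at least 1 was not particular to L2/3-Rorb, with means of 84.5% in L5-S100b, 80.1% in L5-Bcl6 and 78.0% in L6-Npy over the unsorted libraries, and 48.3%, 47.9% and 14.8% in L6-Syt6, L2/3-Calb1 and L5-Htr2c. In non-neuronal cells of the unsorted libraries, taken as a background, 2.94% to 3.55% held at least 1 viral UMI and 0.04% to 0.08% at least 5. Of 58 sorted non-neuronal cells, 9 held at least 1 (15.52%, 95% interval 7.35% to 27.42%) and 0 at least 5. This background was not matched for depth. Non-neuronal cells had medians of 3990 to 4322 UMIs when unsorted and 7424 when sorted. L2/3-Rorb neurons had 20702 to 22738 and 29514. The median number of viral UMIs was 11, 9 and 13 per unsorted L2/3-Rorb neuron and 8 per sorted neuron, with a maximum of 268. The matrices hold 1 viral feature. Whether it counts all 5 projection barcodes was not tested, so 0 viral UMIs does not show that a neuron was unlabelled, and a neuron with many is described here only as strongly labelled.

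L2/3-Rorb neurons with at least 5 viral UMIs (barcode-high, 140, 97, 137 and, in the sorted library, 79 neurons) were next compared with those with none (barcode-zero, 40, 38, 33 and 15 neurons) within each library. Barcode-high neurons were somewhat deeper in each library, with medians of 20938 and 20090, 22713 and 20122, 23156 and 19662, and 29917 and 28816 UMIs. Of 10572 genes tested, 15 passed edgeR's quasi-likelihood test with the library as a block at a Benjamini-Hochberg adjusted p of 0.05 and a log2 difference of 0.5, which is 0.142% of genes: 11 were higher in barcode-high neurons (0.104%) and 4 lower (0.0378%). Without adjustment, 720 genes had a p below 0.05. The count depended on single libraries, with 3 calls without the first unsorted library, 35 without the second, 22 without the third and 12 without the sorted library, and DESeq2 called 0 genes, 136 having an unadjusted p below 0.05. After thinning to 10000 UMIs 3 genes were called, and 12 of the 15 lost their call. Without the library block 0 genes were called, 285 having an unadjusted p below 0.05.

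The calls included S100b, which names another subtype, and the layer genes Etv1 and Slc24a3. Etv1 had 79.95, 52.55 and 30.54 CPM in barcode-zero neurons of the unsorted libraries and 37.44 CPM in the sorted one, and 96.08, 101.60, 86.32 and 84.98 CPM in barcode-high neurons (log2 0.83, adjusted p = 0.000303). Slc24a3 had 54.08, 56.49, 51.93 and 67.87 CPM in barcode-zero and 83.24, 82.69, 89.03 and 90.90 CPM in barcode-high neurons (log2 0.61, adjusted p = 0.0066). In neither gene did the groups overlap. S100b, a calcium-binding protein, rested on 3 UMIs in all barcode-zero and 149 UMIs in all barcode-high neurons: 1.18, 0, 3.05 and 0 CPM against 15.79, 17.59 and 16.30 CPM, with 2.96 CPM in the sorted library. The ratio of the summed shares was 12.2 with a 95% counting interval of 4.09 to 59.7, and the adjusted p was 8.1e-05. All 3 genes had their higher level in L5-S100b rather than in L2/3-Rorb as a whole, with 446 against 80.8 CPM for Etv1, 138 against 78.1 CPM for Slc24a3 and 49.5 against 9.9 CPM for S100b. A higher mean in L5-S100b than in L2/3-Rorb was found for 5 of the 11 genes higher and 2 of the 4 genes lower in barcode-high neurons. The same share over all genes tested was not counted, so no excess is read from these numbers.

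Of the other genes that rose, Pcdh7, a protocadherin, had 24.69, 40.72, 22.91 and 35.10 CPM in barcode-zero and 55.60, 58.06, 48.29 and 63.84 CPM in barcode-high neurons (log2 0.88, adjusted p = 0.0016), without overlap. Vgf, the precursor of several neuropeptides, had 101.11, 119.55, 109.96 and 147.44 against 160.56, 155.70, 177.76 and 175.45 CPM (log2 0.52, adjusted p = 0.0013), and Lypd1, a modulator of nicotinic receptors, 91.70, 78.82, 94.69 and 105.31 against 136.87, 124.47, 118.61 and 161.92 CPM (log2 0.55, adjusted p = 0.0015), again without overlap. P4ha1, a collagen prolyl hydroxylase (log2 0.60), and the uncharacterised 6030419C18Rik (0.54) did not overlap either. Tnnc1, the one leading gene of the subtype that was called higher, was higher in barcode-high neurons of each library (92.88, 102.47, 88.58 and 42.13 against 139.51, 137.23, 149.69 and 86.25 CPM, log2 0.63, adjusted p = 0.000303), with overlapping ranges. Without a call, the leading genes Htr2a, Marcksl1 and Plxnd1 were also higher in each library. Cux2, Gpr83 and Cdkn1c were lower in each. Myl4, a myosin light chain, was higher in the unsorted libraries (21.16, 23.65 and 19.85 against 48.70, 66.86 and 46.78 CPM) but not in the sorted one (25.74 against 23.68 CPM), with a log2 difference of 1.13 over all. Egr4, an immediate early gene, was higher in 3 of 4 libraries (log2 0.50, adjusted p = 0.018).

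The genes that fell were Adamts18, a secreted metalloprotease, Grp, the precursor of gastrin-releasing peptide, Gpr83 and the histone gene Hist1h2ac. Adamts18 had 15.28, 7.88, 6.11 and 18.72 CPM in barcode-zero and 1.97, 4.40, 3.62 and 5.07 CPM in barcode-high neurons (log2 -1.67, adjusted p = 0.047). Grp had 62.31, 80.14, 90.11 and 18.72 against 36.85, 42.66, 40.14 and 21.56 CPM (log2 -0.85, adjusted p = 0.00055), so it was lower in the unsorted libraries and not in the sorted one. Gpr83 was lower in each library (59.96, 64.37, 53.45 and 161.48 against 43.10, 40.47, 44.36 and 98.93 CPM, log2 -0.55, adjusted p = 0.032). The ranges of Gpr83 overlapped between the groups, both values of the sorted library being the highest of their group.

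**Figure D4:**
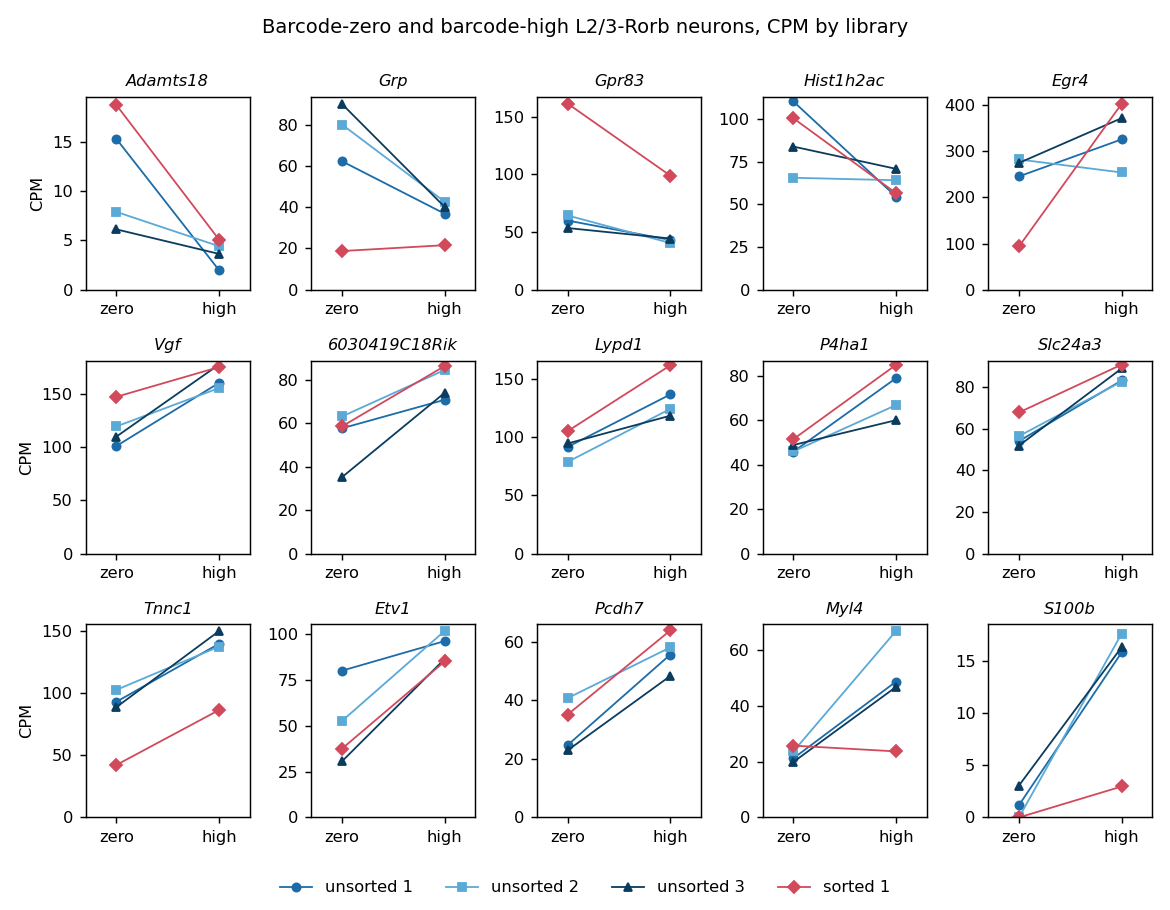
CPM (y axis) of the 15 called genes in barcode-zero and barcode-high L2/3-Rorb neurons (x axis), with a line for each of the 4 libraries and panels ordered from the most negative to the most positive log2 difference. Lines of a panel run the same way in all libraries except for Grp, Egr4 and Myl4, where 1 library differs.

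Most genes that define the subtype did not pass in this contrast. Rorb had 197.85 CPM in barcode-zero and 180.62 CPM in barcode-high neurons on average (log2 -0.09, adjusted p = 0.898), Synpr 352.53 and 310.90 CPM (adjusted p = 0.653) and Krt12 121.74 and 117.18 CPM. Cux2 was lower in each library (197.68 against 145.35 CPM on average, adjusted p = 0.019), with a log2 difference of -0.39 that stayed under the limit. Of the 20 leading genes Tnnc1 was called higher and Gpr83 lower. Of 18 activity-regulated genes, Egr4 was called, and the median of the list was 0.32 against -0.01 over all genes tested. In unsorted library 2, all of the list except Jun, Egr1 and Bdnf were lower in barcode-high neurons, Arc for example with 240 and 190 CPM. Bdnf (186.21 and 257.77 CPM, adjusted p = 0.002), Egr1 (1112 and 1402 CPM, adjusted p = 0.004) and Nr4a1 (158 and 240 CPM, adjusted p = 0.0498) passed on p but not on fold. Against 0.142% of all genes, calls were 2 of 14 calcium-binding genes (S100b and Slc24a3), 1 of 10 deep-layer factors (Etv1), 1 of 12 neuropeptides and their receptors (Gpr83) and 1 of 21 cadherins (Pcdh7), and 0 of 39 potassium channel genes, 0 of 26 HCN, sodium and calcium channel genes, 0 of 19 glutamate receptor genes and 0 of 36 guidance genes. The markers of inhibitory neurons summed to 3.1 to 77.5 CPM in barcode-zero and 0.4 to 38.2 CPM in barcode-high neurons, without a common direction in the 4 libraries. Endothelial and mural markers were higher in barcode-high neurons of each library (8.23, 6.57, 7.64 and 2.34 CPM in barcode-zero against 27.97, 14.52, 9.05 and 3.81 CPM), and astrocyte markers lower (16.46, 13.14, 33.60 and 11.70 against 14.48, 12.32, 16.60 and 7.19 CPM). In barcode-high neurons 0 to 4 of the 6 endothelial and 1 to 4 of the 6 astrocyte markers were at 0, in barcode-zero neurons 1 to 5 and 2 to 5. Microglial markers summed to 2.3 to 25.0 CPM in barcode-zero and 0.4 to 20.1 CPM in barcode-high neurons, and oligodendrocyte lineage markers to 63.2 to 75.2 and 56.2 to 70.4 CPM, both without a common direction. The part of these transcripts in the contrast was not tested.

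Whether strong labelling went with the same genes in other subtypes was asked with an interaction term, that is, a test of the difference between the contrast in L2/3-Rorb and the contrast in another subtype. Against L5-S100b, 67 of 10896 genes (0.615%) differed, 38 (0.349%) with a higher and 29 (0.266%) with a lower contrast in L2/3-Rorb. The count was 29 without the second unsorted library, 42 without the third and 1 without the library block. Grp is an example of opposite directions, with averages of 62.8 CPM in barcode-zero and 35.3 CPM in barcode-high L2/3-Rorb neurons, but 36.1 and 56.3 CPM in L5-S100b, where it was higher in 4 of 4 libraries (log2 of the difference -1.45, adjusted p = 3.1e-05). Cd34, a sialomucin, was at 41.5 and 25.9 CPM in L2/3-Rorb, lower in 4 of 4 libraries, and at 46.1 and 82.0 CPM in L5-S100b, higher in 4 of 4 (-1.53, adjusted p = 3.19e-06). Other genes had averages that lay closer together in L2/3-Rorb than in L5-S100b. Alcam, an adhesion molecule, was at 150 and 147 CPM against 144 and 278 CPM in L5-S100b, and Camk2n2, an inhibitor of CaM kinase II, at 328 and 317 CPM against 153 and 89.3 CPM. Slc30a3, the transporter that loads zinc into vesicles, was at 183 and 167 CPM against 80.1 and 140 CPM. Cdh13 was at 46.1 and 34.5 CPM against 187 and 55.9 CPM, and Grin3a at 75.8 and 96.5 CPM against 67.5 and 37.1 CPM. Pcp4, a calmodulin regulator, was higher in barcode-high neurons of both subtypes, but by less in L2/3-Rorb (379 and 522 CPM against 533 and 1113 CPM).

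Against L6-Syt6, the largest subtype, 79 of 11911 genes (0.663%) differed, 46 higher (0.386%) and 33 lower (0.277%). On leaving out unsorted library 1, 2 or 3 in turn the count was 30, 22 or 23, without the sorted library 122, and without the block 8. Etv1 had 50.1 and 92.2 CPM in barcode-zero and barcode-high L2/3-Rorb neurons and 49.5 and 33.2 CPM in L6-Syt6 (log2 of the difference 1.32, adjusted p = 0.000203). Slc24a3 (57.6 and 86.5 CPM against 9.36 and 4.80 CPM), Lamp5, a vesicle protein of upper-layer neurons (27.0 and 35.9 CPM against 5.60 and 1.97 CPM), Marcksl1 (243 and 295 CPM against 17.9 and 6.39 CPM), Scube1, a secreted protein (43.3 and 52.5 CPM against 15.3 and 5.81 CPM), and 1500009L16Rik (46.2 and 62.3 CPM against 27.1 and 18.7 CPM) showed the same pattern of higher values in L2/3-Rorb and lower ones in L6-Syt6. Pcp4 also did (379 and 522 CPM against 2395 and 1949 CPM). Cck had 2794 and 2668 CPM in L2/3-Rorb and 64.3 and 112 CPM in L6-Syt6, where its level was far lower throughout.

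Against L6-Npy, 9 of 11049 genes (0.0815%) differed, 4 higher (0.0362%) and 5 lower (0.0453%). On leaving out unsorted library 1, 2 or 3 in turn the count was 1, 1 or 3, and without the block 0 (328 genes at an unadjusted p below 0.05), so that 6 to 8 of the 8 genes named for this comparison lost their call. Etv1 was among the 9 genes called (log2 of the difference 1.11, adjusted p = 0.046), as was Grin3a, with 75.8 and 96.5 CPM in L2/3-Rorb and 86.1 and 57.0 CPM in L6-Npy. Lhfp, a leading gene of L2/3-Rorb, was at 91.6 and 78.8 CPM there and at 3.46 and 11.3 CPM in L6-Npy. The contrasts against the 3 subtypes share the L2/3-Rorb sums and are not independent of each other. Of the 15 genes called within L2/3-Rorb, Grp and Lypd1 differed from L5-S100b by this test, against 0.615% of all genes. Vgf, 6030419C18Rik, Slc24a3, Etv1, Pcdh7, Myl4 and S100b differed from L6-Syt6, against 0.663% of all genes, and Etv1 from L6-Npy. The 15 genes had been chosen by their contrast in L2/3-Rorb, which is a part of each of these tests. Pcdh7 had log2 differences of 0.88 in L2/3-Rorb and, on average, 0.90 in L5-S100b, and the difference between these was -0.04 ± 0.21 (SE, adjusted p = 0.973). Against L6-Syt6 the difference for Pcdh7 was 0.84 ± 0.19 (SE, adjusted p = 0.038).

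**Figure D5:**
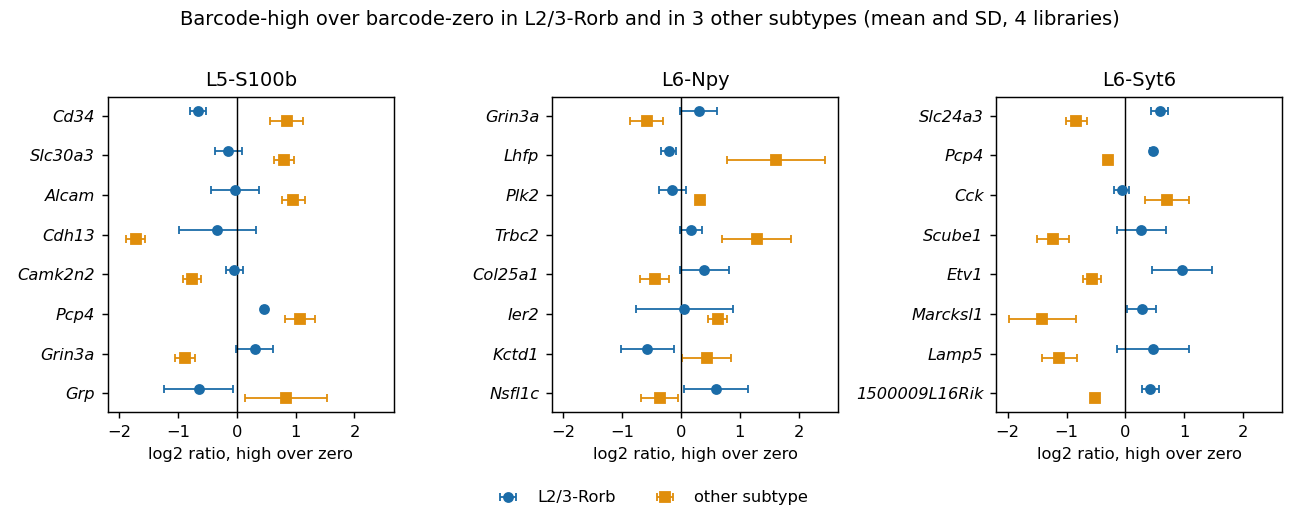
Log2 ratio of CPM in barcode-high over barcode-zero neurons (x axis, mean and SD over 4 libraries) for the 8 genes with the lowest p in each test of a difference (y axis), in L2/3-Rorb (circles) and in L5-S100b, L6-Npy or L6-Syt6 (squares). The squares of the first panel run from -1.72 for Cdh13 to 1.08 for Pcp4, the L2/3-Rorb circles from -0.65 for Cd34 to 0.46 for Pcp4, and Pcp4 lies above 0 in both subtypes of the first panel.

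Sorted and unsorted L2/3-Rorb neurons were compared last. Of 12204 genes, 2285 (18.7%) passed, 800 higher (6.56%) and 1485 lower (12.2%) in the sorted library, with the 1 sorted library assumed to vary as the unsorted ones do, so that these p-values rest on the spread of the unsorted libraries alone and set 1 library against 3. The sort, the animals, the depth and the library preparation cannot be told apart here. Among the genes with the largest falls were Vip, Sst, Gad1, Gad2, Tac2, Cxcl14 and Npy, most of them genes of GABAergic interneurons, each with no UMI in sorted L2/3-Rorb neurons. Gad1 had 4.73, 11.26 and 6.25 CPM in the unsorted libraries and Sst, somatostatin, 3.60, 20.05 and 6.25 CPM. Against a limit of 3 counts in the sorted library (0.817 CPM), Gad1 was at least 9.07-fold lower. Summed over 8 inhibitory markers, unsorted L2/3-Rorb neurons had 37.8, 50.0 and 28.4 CPM, more than the 11.4 to 13.7 CPM of the other excitatory neurons of these libraries, and sorted ones had 1.1 CPM with 6 of 8 markers at 0. The 7 microglial markers summed to 22.1, 14.6 and 11.6 CPM against 1.4 CPM, with 4 of 7 at 0. The part of such transcripts in the other differences was not tested.

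Some of the genes that define the subtype also differed between the sorted library and the unsorted ones. Gpr83 was higher in the sorted library (log2 1.04), as were Igsf3 (0.80), Medag (0.59) and Cux2 (0.52), whereas Tnnc1 (-0.91), Krt12 (-0.86) and Synpr (-0.55) were lower. Over the 20 leading genes the median was 0.11. Rorb differed by 0.16 ± 0.08 (SE). Of the 10 lowest genes of the subtype, 7 were lower still in the sorted library. Cck fell from 3217 CPM on average in unsorted to 1124 CPM in sorted neurons (log2 -1.63). Families of membrane proteins had medians above the -0.002 of all genes tested, though to unlike degrees. The median was 0.39 for glutamate receptor genes, among them Grm3 (1.12), Grin3a (0.83) and Grm2 (0.63). It was 0.32 for HCN, sodium and calcium channel genes, 0.29 for guidance genes and 0.27 for potassium channel genes. GABA-A receptor subunits had 0.21, receptors for monoamines, acetylcholine, opioids and cannabinoids 0.13, and cadherins and protocadherins 0.07. The 18 activity-regulated genes had a median log2 difference of 0.03. Single members went both ways, with Nr4a3 (0.48), Nr4a1 (0.45) and Arc (0.39) higher and Ier2 (-0.45) and Junb (-0.34) lower in the sorted library. AC163720.3 had no UMI in unsorted L2/3-Rorb neurons and 7.35 CPM in the sorted ones, at least 8.92-fold higher against the limit of 3 counts.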

How the data were processed

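Cells of 4 libraries were profiled with 10x 3' v3 chemistry. The authors aligned reads with Cell Ranger 3.0.2 to mm10, to which, by their methods, the 5 projection barcodes were added as genes of their own, and deposited raw UMI counts per gene and cell, in which 1 viral feature is present. The reason for this difference was not tested. Subtypes came from the authors' cell annotation (Seurat 3.1.4, with Leiden clustering in Scanpy), made after cells outside 500 to 8000 detected genes, outside 1000 to 60000 UMIs or with 20% or more mitochondrial counts had been dropped. Excitatory clusters of low quality or with markers of non-neuronal cells were also removed by the authors. No doublet caller was run here. Deposited counts were summed per library, subtype and viral UMI class, leaving out the viral feature. Levels are CPM, and ratios use a pseudocount of 1 CPM and genes with at least 10 CPM in the higher group in every library. Named genes were the 20 highest, 10 lowest and 15 highest over the next subtype with at least 50 CPM, the genes that name subtypes or mark layers in the study, called genes, and the 8 of lowest p or largest change in larger contrasts. Contrasts used edgeR 4.0.16 (R 4.3.3; TMM, quasi-likelihood F test, Benjamini-Hochberg), with the library as a block within libraries, and DESeq2 1.42.0 as an alternative. A call needed an adjusted p under 0.05 and a log2 difference of at least 0.5. Thinning drew 10000 UMIs per neuron without replacement. Scripts were tested on simulated data. GENCODE M21 matched 31011 of 31053 genes. Members and gene lists were chosen with earlier results of these data known. The deposited total per neuron differed from the matrices by at most 70 UMIs. Depth ranged from 3640163 to 4479648 UMIs per L2/3-Rorb sum. Intervals cover counting error only. The unsorted replicates are separate mice, and barcode-zero and barcode-high sums pair because they come from the same library: deviations of same-library sums correlated with r = 0.157, 0.151, 0.228 and 0.527 over 10572 genes, but unsorted 1 and 2 reached slightly higher values with another library (0.163 and 0.155). Other subtypes entered only as comparisons. Some genes that the naming rule covers are not reported here.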

Additional observations from a re-analysis of the deposited data

Results flagged for a closer look

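For 24 results the barcode-high against barcode-zero contrast differed between L2/3-Rorb and another subtype in edgeR's test of the difference itself, at an adjusted p under 0.05. The values are log2 differences, contrast in L2/3-Rorb minus contrast in the other subtype. Against L5-S100b they were -1.53 for Cd34, -0.96 for Slc30a3, -1.01 for Alcam, 1.35 for Cdh13, 0.71 for Camk2n2, -0.63 for Pcp4, 1.16 for Grin3a and -1.45 for Grp. The adjusted p of these 8 genes ran from 3.19e-06 to 3.1e-05.

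Against L6-Syt6 they were 1.60 for Slc24a3, 0.72 for Pcp4, -0.91 for Cck, 1.49 for Scube1, 1.32 for Etv1, 1.88 for Marcksl1, 2.10 for Lamp5 and 0.93 for 1500009L16Rik, with adjusted p from 3.41e-06 to 0.000834. Pcp4 thus had opposite signs in the comparisons with L5-S100b and L6-Syt6, which share the L2/3-Rorb sums.

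Against L6-Npy they were 0.89 for Grin3a, -1.90 for Lhfp, -0.52 for Plk2, -1.32 for Trbc2, 0.90 for Col25a1, -0.74 for Ier2, -0.98 for Kctd1 and 0.80 for Nsfl1c, with adjusted p from 0.00489 to 0.0458. Plk2, a kinase induced by activity, was at 204 and 183 CPM in barcode-zero and barcode-high L2/3-Rorb neurons and at 236 and 296 CPM in L6-Npy, where it was higher in 4 of 4 libraries. Lhfp and Trbc2 had under 25 CPM in L6-Npy, 3.46 and 11.3 CPM for Lhfp and 8.01 and 22.0 CPM for Trbc2.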

How the results depend on the processing

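Counts of genes at least 2-fold higher in L2/3-Rorb went from 295 to 137 with a minimum of 50 CPM and to 180 with the other subtypes weighted equally, and counts of lower genes from 217 to 363 with a minimum of 1 CPM and to 99 with 50 CPM. Equal weights turned Calb1 from 0.68 to -1.07, and S100b (-0.30) ranged from -0.49 without unsorted replicate 2 to 0.18 without sorted replicate 1. The barcode contrast within L2/3-Rorb (15 calls) gave 28 calls with no filter on low counts, 3 after thinning, 9 with barcode-positive neurons from 1 UMI, 0 with DESeq2 (136 genes at an unadjusted p below 0.05), and 3 to 35 on leaving out one library. Without the library block it gave 0 (285 at an unadjusted p below 0.05), and the differences between contrasts gave 1 call against L5-S100b, 0 against L6-Npy (328 at an unadjusted p below 0.05) and 8 against L6-Syt6. With no filter these were 25 against L6-Npy and 184 against L6-Syt6, and on leaving out one library 29 to 73, 1 to 8 and 22 to 122. Sorted against unsorted gave 1411 calls with DESeq2 in place of 2285. The cause of these changes was not tested. No paired analysis was possible for sorted against unsorted because the sorted library pools other mice. The share of L2/3-Rorb neurons with a viral UMI went from 80.06% to 65.97% with at least 5 UMIs and 76.23% after thinning, and the share with Rorb after thinning (mean 70.25% over unsorted libraries) to 52.76% at 5000 UMIs and 47.29% with at least 2 UMIs. Of 890 values of single genes, 633 kept their call or stayed within the spread between libraries, 116 lost the call (72 of them genes of the barcode contrast), 139 moved and 2 changed sign, the latter being Calb1 and S100b above. Precision was limited by the 15 to 40 barcode-zero neurons per library and by the single sorted library.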
